A study of Mus musculus with 22 samples.

Results

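Smooth muscle contractile genes encode the proteins that let the muscle coat of the gut shorten and relax. Taken here were Acta2, Actg2, Myh11, Myl9, Mylk, Tagln, Cnn1, Smtn, Lmod1 and Des, chosen by name: every probe whose gene name in the array files equalled 1 of these 10 symbols was reported apart. They were read by 17 of 41174 probes, over all 22 arrays. Acta2 had 5 probes, Mylk 3, Tagln 2 and each of the other members 1.

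In a smooth muscle cell, actin filaments built from Acta2 and Actg2 slide past myosin filaments whose heavy chain is Myh11. Calcium bound to calmodulin switches on myosin light chain kinase, the product of Mylk, which phosphorylates the regulatory light chain Myl9 and so starts contraction. Transgelin (Tagln), calponin (Cnn1), smoothelin (Smtn) and leiomodin (Lmod1) bind or build the actin filaments, and desmin (Des) is the intermediate filament that ties the filaments together. Expression of most of these genes is known to depend on serum response factor and its partner myocardin, which act through a DNA element called the CArG box.

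The arrays held RNA of male C57BL/6 mice on chow, in a study of intestinal SIRT1, a deacetylase. The groups were young ileum flox (n = 4), young ileum iKO (n = 4), aged ileum flox (n = 3), aged ileum iKO (n = 4), aged colon flox (n = 3) and aged colon iKO (n = 4). Flox mice were the controls and iKO mice the SIRT1 mutants; the labels do not spell out iKO, the Cre driver or the deleted part of Sirt1. Young mice were 6 to 8 weeks old and aged mice 24 months. The labels do not tie an ileum to a colon of 1 mouse, nor a replicate number to a litter or day, so p-values measure the spread between these samples. The whole bowel wall and the mucosa are not told apart in the labels, and in bulk RNA fewer muscle cells and less RNA per muscle cell cannot be told apart.

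The values are log2 signals relative to the 75th percentile of the same array, which lay between 918 and 1231 signal units in the ileum and between 1425 and 1751 in the colon. Between 49.8% and 61.5% of probes were well above background on ileum arrays, against 70.4% to 79.7% on colon arrays. Ileum and colon were hybridised on 4 slides each with none in common, so tissue and array run cannot be told apart. Young ileum arrays sat at other slide positions than aged ileum arrays, and flox at other positions than iKO in the young ileum and in the colon, so position cannot be told apart from age there or from genotype. Neither Sirt1 probe passed the test for genotype in any of the 3 comparisons (adjusted p = 0.187 to 0.999), and whether either lies in the deleted part is not given in the sources used here.

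The probes on which the results turn are shown by the first 30 of their 60 bases, in lower case throughout, as the array files give them, with the position of the whole probe in mouse build mm7. Probes of 1 gene that read different stretches can behave differently, and 2 Mylk probes, 2 Tagln probes and 2 of the Acta2 probes are set out for that reason, beside the single probe of Cnn1.
Mylk A_52_P145912: aacgggcaatgctgtgagagccatcgggag
Mylk A_52_P575217: tgttgctgaggaaaagccccatgtgaaacc
Tagln A_51_P450527: ctttgaaggagacccagcccagcctctaca
Tagln A_52_P517683: cagtttggctgtgaccaaaaacgatggaaa
Cnn1 A_51_P350817: acacacgcattttggttttgcagtgactgg
Acta2 A_52_P210078: acactgacttcacagctagagtgactattt
Acta2 A_51_P450957: atcatcaccaactgggacgacatggaaaag
The Mylk probes lie at chr16:34669844-34669903 and chr16:34671521-34671580 on the plus strand. The Tagln probes lie at chr9:45888137-45888196 and chr9:45888956-45889015 on the minus strand, and the Cnn1 probe at chr9:21988172-21988231 on the plus strand. Of the Acta2 probes, A_52_P210078 lies at chr19:33942440-33942499, while A_51_P450957 is placed over 3255 bases, at chr19:33949738-33952992, both on the minus strand. A placement that long means that its 60 bases come from more than 1 block of the genome. No annotation of build mm7 was used here, so exon or UTR is not stated for any probe.

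Of the 17 probes, 15 were well above background on all 22 arrays, and none was saturated. The exceptions were designed on other cDNA clones: Acta2 A_52_P644232 was above background on 8 arrays and Mylk A_51_P272407 on 5. The second was not tested in any comparison, and the first only where the colon was part of the fit. Acta2 A_52_P420504 and Des A_51_P335969 were each spotted 10 times per array, and their spots differed by a median SD of 0.034 and 0.030 on the log2 scale. Over arrays of 1 group, the median residual SD of the members was 0.25 in the ileum and 0.27 in the colon, against 0.20 and 0.21 over all probes tested. The spread between samples of a group was thus several times that between spots.

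**Figure D1:**
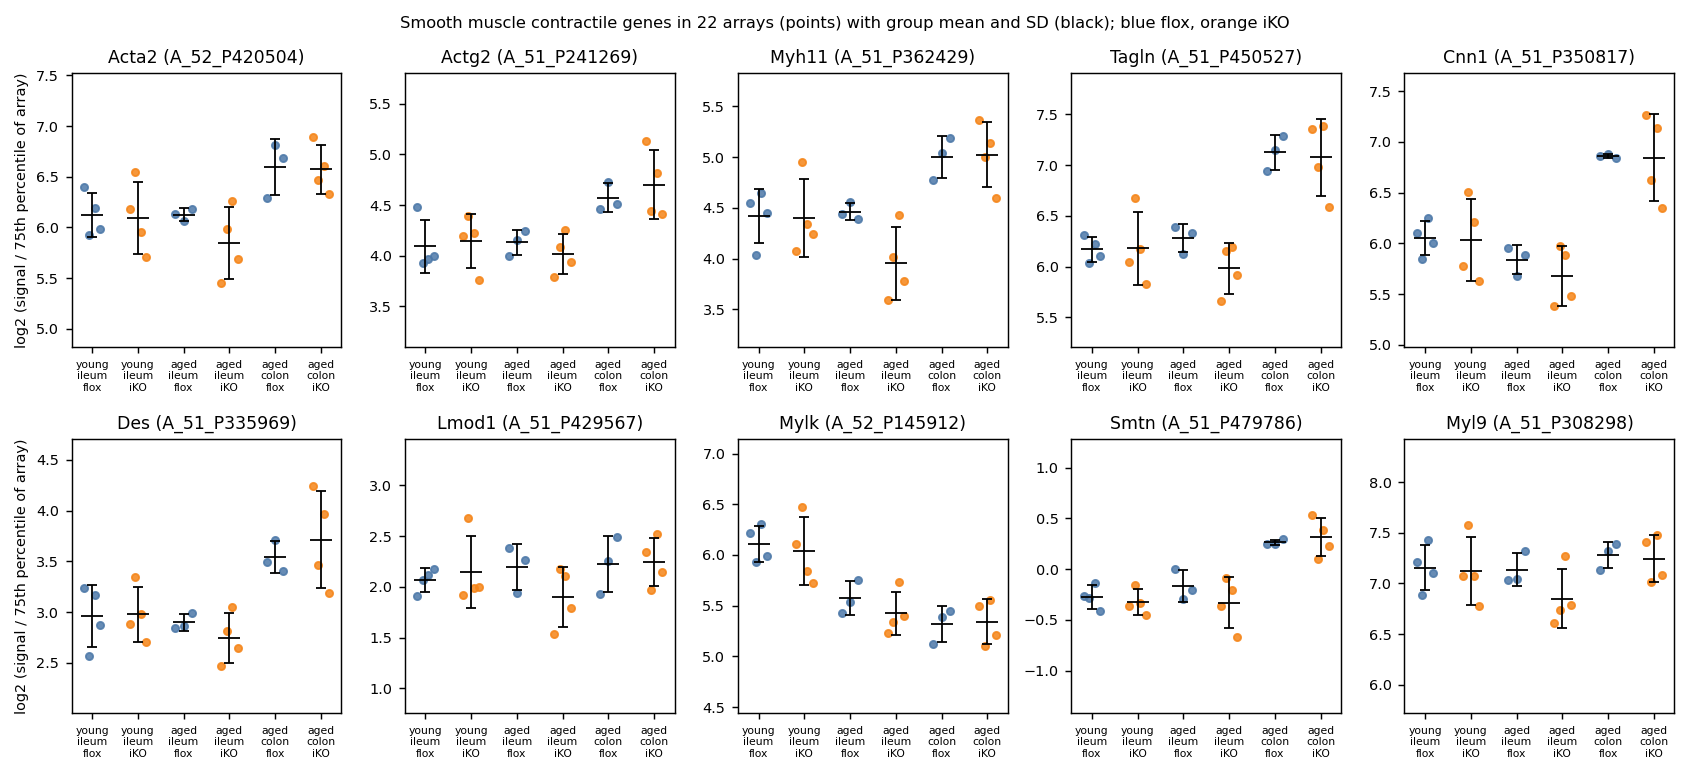
Log2 signal relative to the 75th percentile of the array (vertical axis) for the brightest probe of each of the 10 members in the 6 groups (horizontal axis), with 1 point per array, the group mean and its SD; each panel spans the same number of log2 units. Tagln, Cnn1, Smtn, Acta2 and Myh11 are higher on every colon array than on every aged ileum array, Acta2 and Myh11 by a narrow gap. Mylk is lower on aged than on young flox ileum arrays, and Lmod1 and Myl9 overlap between tissues.

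The largest differences among the members were between tissues. Cnn1 and Tagln were higher in the colon than in the ileum of aged flox mice. So was Acta2, though by probe A_52_P210078 alone and with a marginal call. In aged iKO mice Myh11, Des, Actg2 and Smtn were also higher. The probes that passed differed by between 0.60 and 1.16 on the log2 scale. Mylk, Lmod1 and Myl9 did not pass in either genotype. In flox mice 4 of 16 member probes passed, all upwards, where 32.3% of all probes tested passed in either direction. In iKO mice 10 of 16 passed, all upwards, where 42.9% of all probes did. The members' median difference was 0.44 in flox and 0.71 in iKO mice, beside 0.12 and 0.10 over all probes tested.

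Other scalings left the members' median above that of all probes and raised the number of member probes that passed. With normexp background correction the median over all probes became -0.06 in flox and -0.07 in iKO mice, while the members' median stayed at 0.46 and 0.73. The members' median therefore lay 0.32 above that of all probes in flox and 0.60 above it in iKO mice in the main analysis, and 0.52 and 0.80 above it with normexp. Under quantile normalization the members' median was 0.62 and 0.87. In flox mice 6 member probes passed with normexp and 9 with quantile normalization, and in iKO mice 11 and 12. Over all probes that passed, 62.8% were higher in the colon in flox and 58.6% in iKO mice, against 43.2% and 41.9% with normexp.

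Cnn1 and Tagln passed with every probe in both genotypes. Cnn1, which restrains the actomyosin ATPase, measured 6.86, 6.88 and 6.84 in the 3 colons of aged flox mice and 5.95, 5.68 and 5.88 in their ilea. In aged iKO mice it measured 7.27, 6.62, 7.13 and 6.35 in the colon and 5.38, 5.98, 5.89 and 5.48 in the ileum. The lowest colon array thus lay above the highest ileum array in both genotypes. The difference was 1.02 ± 0.23 (SE) in flox (adjusted p = 0.00539) and 1.16 ± 0.20 in iKO mice (adjusted p = 0.000622). It passed under all 24 alternatives in each genotype.

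Tagln, an early marker of the smooth muscle lineage, gave the same picture with both probes. By A_51_P450527 it measured 6.95, 7.15 and 7.29 in the colon of aged flox mice, against 6.39, 6.12 and 6.33 in the ileum. In iKO mice the colon arrays read 7.36, 6.98, 7.39 and 6.58 and the ileum arrays 5.66, 6.16, 6.20 and 5.92. The groups did not overlap in either genotype. The difference was 0.85 ± 0.21 in flox (adjusted p = 0.00949) and 1.10 ± 0.18 in iKO mice (adjusted p = 0.000524). The second probe, A_52_P517683, gave 0.85 ± 0.24 and 1.11 ± 0.20 (adjusted p = 0.0168 and 0.00107), although its flox call was lost without aged ileum flox replicate 3 (adjusted p = 0.0578) and without aged colon flox replicate 4 (adjusted p = 0.0576).

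Smtn, found in fully contractile smooth muscle, measured 0.25, 0.25 and 0.30 in flox colons and 0.01, -0.29 and -0.21 in flox ilea. In iKO colons it measured 0.53, 0.10, 0.39 and 0.23, and in iKO ilea -0.36, -0.09, -0.20 and -0.67. Every colon array lay above every ileum array of the same genotype. The difference of 0.64 ± 0.13 in iKO mice passed (adjusted p = 0.00228) and that of 0.43 ± 0.15 in flox mice did not (adjusted p = 0.0503). The flox value lay at the threshold: it passed under 9 of 24 alternatives, 5 of them leaving out 1 array (aged ileum flox replicate 1, aged ileum iKO replicate 2 or 4, aged colon iKO replicate 1 or 2), with adjusted p between 0.0281 and 0.143 over all 24. Lmod1, which nucleates actin filaments, differed by 0.03 ± 0.21 in flox (adjusted p = 0.931) and 0.35 ± 0.18 in iKO mice (adjusted p = 0.141). Its ranges overlapped between tissues in both genotypes.

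Among the actins, Acta2 was read by probes that did not all move alike. Probe A_52_P210078 differed by 0.60 ± 0.21 in flox mice (adjusted p = 0.0492) and by 0.73 ± 0.19 in iKO mice (adjusted p = 0.00759). The flox call was marginal: it was kept under 11 of 23 alternatives, and leaving out aged ileum flox replicate 1, 3 or 4, aged colon flox replicate 1, 3 or 4, aged ileum iKO replicate 2 or 4, or aged colon iKO replicate 2 or 3 ended it (adjusted p = 0.0565 to 0.132). The brightest probe, A_52_P420504, read 6.29, 6.82 and 6.68 in flox colons against 6.13, 6.06 and 6.19 in flox ilea, and 6.89, 6.47, 6.61 and 6.33 in iKO colons against 5.45, 5.99, 6.26 and 5.69 in iKO ilea. Neither genotype overlapped between tissues. Its difference of 0.73 ± 0.18 passed in iKO mice (adjusted p = 0.00679) and that of 0.47 ± 0.21 in flox mice did not (adjusted p = 0.106). Probe A_52_P239556 differed most in iKO mice, at 1.11 ± 0.19 (adjusted p = 0.000701), with 0.45 ± 0.22 and overlapping ranges in flox mice (adjusted p = 0.145).

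Acta2 A_51_P450957, the probe placed over 3255 bases, differed least between tissues among the Acta2 probes that were above background on every array: 0.32 ± 0.13 in flox (adjusted p = 0.0809) and 0.26 ± 0.11 in iKO mice (adjusted p = 0.0826). With quantile normalization this probe read 0.48 and 0.47 and passed in both (adjusted p = 0.0119 and 0.00403). In the ileum its deviations from group means correlated at 0.24 to 0.62 with those of the other 3 Acta2 probes, which correlated at 0.82 to 0.93 with each other (15 arrays). The same probe correlated at 0.89 with Acta1 and at 0.77 and 0.38 with the 2 probes of Actb, the skeletal and the cytoplasmic actin. Over the 7 colon arrays the order was another: 0.55 to 0.69 with the other 3 Acta2 probes, 0.40 with Acta1 and 0.91 and 0.80 with Actb. Coding sequences of the actins are very alike, and whether this probe also reads other actins was not tested. Actg2, the enteric actin, rose by 0.68 ± 0.16 from ileum to colon in iKO mice (adjusted p = 0.00489), with 0.44 ± 0.19 in flox mice (adjusted p = 0.0909), and its ranges did not overlap in either.

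Myh11, the motor of the thick filament, measured 4.78, 5.04 and 5.19 in flox colons against 4.44, 4.56 and 4.39 in flox ilea. In iKO mice it measured 5.36, 5.0, 5.14 and 4.60 against 3.59, 4.01, 4.43 and 3.78. No colon array lay as low as an ileum array of its genotype. The difference was 1.07 ± 0.19 in iKO mice (adjusted p = 0.000873) and 0.54 ± 0.22 in flox mice, which did not pass (adjusted p = 0.0798). Des differed by 0.97 ± 0.20 in iKO mice (adjusted p = 0.00257) and by 0.64 ± 0.24 in flox mice (adjusted p = 0.0563), again without overlap. The share of all probes with ranges apart between tissues or ages is not given here. With so few arrays per group, ranges apart are a description and no test.

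The kinase that starts contraction and its substrate did not pass. Mylk A_52_P145912 measured 5.12, 5.39 and 5.45 in flox colons and 5.42, 5.54 and 5.76 in flox ilea, a difference of -0.25 ± 0.16 (adjusted p = 0.256). In iKO mice it measured 5.50, 5.11, 5.56 and 5.21 in the colon and 5.23, 5.34, 5.73 and 5.39 in the ileum, a difference of -0.08 ± 0.14 (adjusted p = 0.673). The ranges overlapped in both genotypes. Myl9, the light chain that Mylk phosphorylates, differed by 0.14 ± 0.18 in flox (adjusted p = 0.57) and 0.39 ± 0.15 in iKO mice (adjusted p = 0.0571). The iKO value of Myl9 passed under 7 of 24 alternatives, among them quantile normalization (0.67, adjusted p = 0.00343) and leaving out aged ileum iKO replicate 3 (0.53, adjusted p = 0.0095) or aged colon iKO replicate 2 (adjusted p = 0.0406). Set against the mean of the other 9 members on the same array, Mylk was lower on each of the 7 colon arrays than on each of the 7 aged ileum arrays, with a mean log2 difference of -0.82 for both probes. Lmod1 was lower by the same measure without overlap (-0.42), and Cnn1 and Tagln were higher without overlap (0.57 and 0.45). These relative values are a description of unequal change and were not tested.

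**Figure D2:**
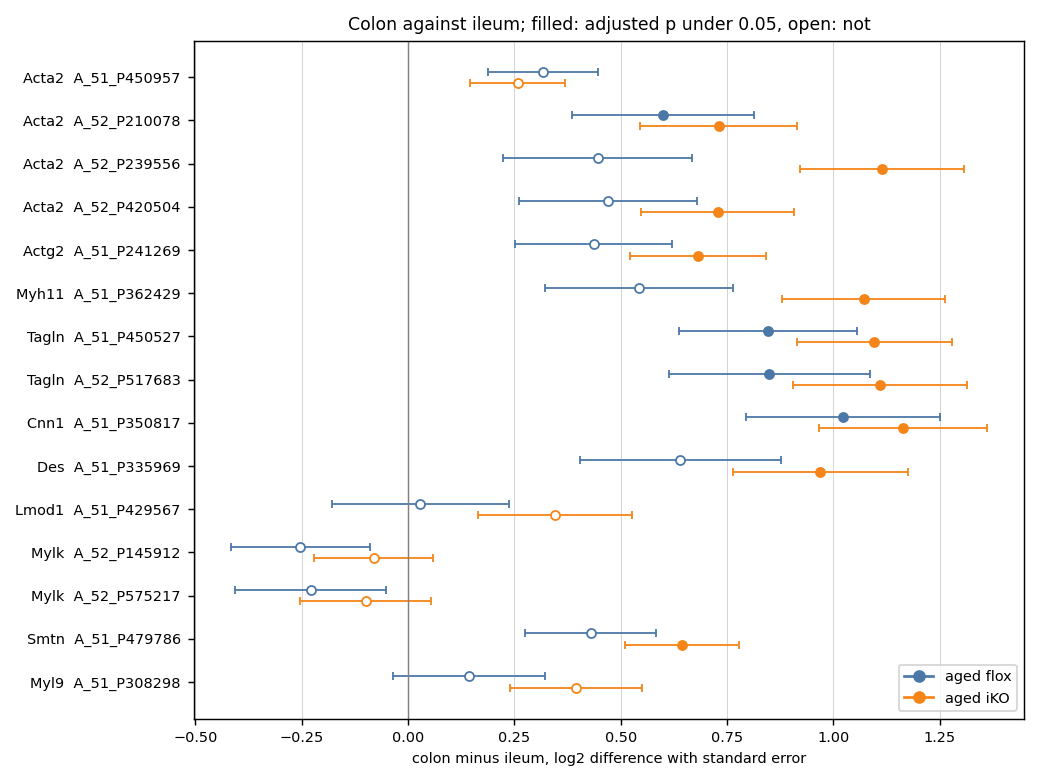
Colon minus ileum in aged mice (horizontal axis, log2 difference with its standard error) for the 15 member probes above background on all 22 arrays (vertical axis), in flox and iKO mice; filled points passed at an adjusted p under 0.05. Cnn1 and both Tagln probes are filled in both genotypes at 0.85 or more, while both Mylk probes lie left of 0 and are open.

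Whether the tissue difference of the members was larger in iKO than in flox mice was tested as an interaction. For the genotype by tissue interaction, 0 of 16 member probes passed in limma, where 0.0205% of all probes tested did, and 1 had an unadjusted p under 0.05. That was Acta2 A_52_P239556, at 0.67 ± 0.29 (adjusted p = 0.807). The larger number of calls in iKO than in flox mice is therefore not shown to be a difference between genotypes. The flox groups held 3 arrays each and the iKO groups 4.

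Other genes of the muscle coat were counted from lists. Over all probes tested, 42.9% passed between tissues in iKO and 32.3% in flox mice, in either direction, with medians of 0.10 and 0.12. Of 32 other contractile and cytoskeletal genes, all tested, 17 rose and 3 fell from ileum to colon in iKO mice, and 6 rose and 1 fell in flox mice, with medians of 0.47 and 0.12. Those that rose in both included Fhl1 (1.58 ± 0.26 in flox and 2.38 ± 0.22 in iKO), Hspb7 (1.63 ± 0.26 and 1.49 ± 0.23), Sgca (1.17 ± 0.32 and 1.90 ± 0.27) and Csrp1 (0.75 ± 0.18 and 0.94 ± 0.15). Ldb3, a Z-disc protein, fell by 2.17 ± 0.13 in flox and by 2.30 ± 0.11 in iKO mice. Fhl1 and Csrp1 are LIM-domain proteins, Hspb7 a small heat shock protein and Sgca a sarcoglycan of the muscle membrane. No ileum group had Sgca above background on all its arrays, so it was tested only through the colon groups where it is high.

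Among 21 regulators of smooth muscle gene expression, of which 19 were tested, 2 rose and 1 fell in flox mice and 4 rose and 2 fell in iKO mice. Myocd, the gene of myocardin, rose by 0.84 ± 0.19 in flox (adjusted p = 0.00542) and 0.86 ± 0.16 in iKO mice (adjusted p = 0.00121). Gata6, a transcription factor, fell by 0.49 ± 0.14 and by 0.58 ± 0.12. Of 28 genes of muscle signalling, ion channels and receptors, of which 24 were tested, 5 rose and 1 fell in flox mice and 11 rose and 2 fell in iKO mice. The L-type calcium channel Cacna1c rose by 0.88 ± 0.20 and 1.19 ± 0.17, the inositol trisphosphate receptor Itpr1 by 0.71 ± 0.14 and 0.88 ± 0.13, and the potassium channel Kcnma1 by 0.95 ± 0.26 and 1.41 ± 0.22. Cacna1c and Kcnma1, like Sgca, were tested only through the colon groups where they are high. The same holds for Cacnb2 of this list and Foxf1 of the regulators, both counted among the rises in iKO mice. Rgs2, which restrains G protein signalling, fell by 0.97 ± 0.22 in flox mice and did not pass in iKO mice (-0.43 ± 0.19, adjusted p = 0.0932). In flox mice the share that passed in each of these lists lay below the 32.3% of all probes. In iKO mice that of the regulators lay below the 42.9% of all probes.

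Markers of other cells moved with tissue as well. Of 5 markers of interstitial cells of Cajal, the pacemakers of the gut, 3 rose in flox and 4 in iKO mice. Thbs4 rose by 5.26 ± 0.41 and 4.48 ± 0.35, Ano1 by 2.85 ± 0.25 and 2.79 ± 0.21 and Kit by 0.66 ± 0.20 and 1.20 ± 0.18. Etv1 passed in iKO mice (0.57 ± 0.19, with 0.04 ± 0.22 in flox), and Hcn4 in neither (-0.79 ± 0.61 in flox and -1.0 ± 0.53 in iKO). The summed level of the 5, in multiples of the 75th percentile, was 2.39 to 2.84 in flox ilea and 24.0 to 36.6 in flox colons, and 2.07 to 2.86 against 14.5 to 28.5 in iKO mice. Most of the colon sum was Thbs4: without it the other 4 summed to 1.93 to 2.09 in flox ilea and 5.21 to 6.36 in flox colons, and to 1.52 to 1.99 against 4.63 to 6.43 in iKO mice. Of 13 markers of enteric neurons and glia, 4 of 11 tested rose in flox and 6 in iKO mice, where 32.3% and 42.9% of all probes passed in either direction. Gfap and Chat, among those that rose in flox mice, were above background on no ileum array. They were tested only through the colon groups where they are high, which fixed their direction. The summed level of 10 epithelial markers was 1656 to 1734 in flox ilea against 1057 to 1298 in flox colons, and 1692 to 1816 against 1214 to 1271 in iKO mice. Such a sum weighs the brightest genes most. Singly, in flox mice, Vil1, Krt20, Cldn7 and Krt8 were lower in the colon, Cdx1 was higher (0.50 ± 0.14, adjusted p = 0.0187 in limma) and the others did not pass. Of 10 markers of striated muscle, Myh2 was well above background on all 7 colon arrays and on 1 of 7 aged ileum arrays. Myh2 was thus tested only through the colon groups where it is high, which fixed its direction. The list did not move 1 way between tissues in flox mice: Myh2 (3.55 ± 0.63) and Actc1 (0.68 ± 0.21) were higher in the colon, Acta1 lower (-1.44 ± 0.25), and the others tested did not pass. Its summed level was 14.3 to 17.0 in flox ilea and 14.4 to 18.5 in flox colons. Of 8 tested, 1 passed between iKO and flox colons in limma, where 0.103% of all probes did. That was Tnni2, higher in iKO by 2.88 ± 0.20 (adjusted p = 0.00526). Mb differed by 3.02 ± 0.52 without passing (adjusted p = 0.16), and the other 6 by -0.28 to 0.31. Mb was above background on all 4 iKO colons but on only 1 flox colon. It was tested only through the iKO group where it is high, which fixed its direction. The part of these cells in the members' differences was not tested.

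With age, Mylk was the member that stood out. It was lower in the aged than in the young ileum by 0.50 to 0.61 on the log2 scale in both genotypes and by both probes, and it passed in iKO mice. No other member passed in either genotype. In iKO mice 2 of 15 member probes passed, both of Mylk and both downwards, where 11% of all probes tested passed in either direction. In flox mice 0 of 15 passed in limma, where 8.01% of all probes did, with 2 at an unadjusted p under 0.05. A share of 2 in 15 lies near that background.

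Mylk A_52_P145912 measured 6.21, 5.93, 6.31 and 5.99 in young flox ilea and 5.42, 5.54 and 5.76 in aged flox ilea. In iKO mice it measured 6.11, 6.48, 5.85 and 5.73 when young and 5.23, 5.34, 5.73 and 5.39 when aged. Every aged flox array lay below every young one, while in iKO mice aged replicate 3 reached the lowest young array. The difference was -0.61 ± 0.16 in iKO (adjusted p = 0.0291) and -0.54 ± 0.17 in flox mice (adjusted p = 0.0736). Probe A_52_P575217 gave -0.57 ± 0.17 in iKO (adjusted p = 0.0432) and -0.50 ± 0.18 in flox mice (adjusted p = 0.0964). The interaction was -0.08 ± 0.24 and -0.07 ± 0.24 for the 2 probes (adjusted p = 1 for both), so the fall is not shown to differ by genotype.

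The Mylk call in iKO mice was marginal, although its size changed little. Over 26 alternatives the first probe gave -0.72 to -0.44 with adjusted p between 0.0202 and 0.0875, and passed in 18. Both probes lost it with quantile normalization (-0.44 and -0.42), without a filter on dim probes, in a fit of the contrasted groups alone, and without young iKO replicate 1 or 2 or aged iKO replicate 1, 2 or 4, where adjusted p ran from 0.0517 to 0.122. The second probe alone also lost it without young flox replicate 1 or 4, young iKO replicate 3 or aged flox replicate 1 or 3, with adjusted p from 0.0502 to 0.0616. With the replicate number as a block, 1 of the 2 probes kept the call. Within the slides that held both ages, the first probe read -0.76 to -0.53 on 3 slides of iKO arrays and -0.72 to -0.39 on 2 slides of flox arrays.

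Relative to the mean of the other 9 members on the same array, Mylk was lower on each of the 7 aged ileum arrays than on each of the 8 young ones. By A_52_P145912 this relative value ran from 1.07 to 1.46 in aged and from 1.55 to 1.91 in young mice, a mean difference of -0.46. By A_52_P575217 it ran from 0.84 to 1.24 and from 1.28 to 1.65, a mean difference of -0.42. None of the other 9 members separated the ages by this measure. It was taken up after the values had been seen and carries no test.

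**Figure D3:**
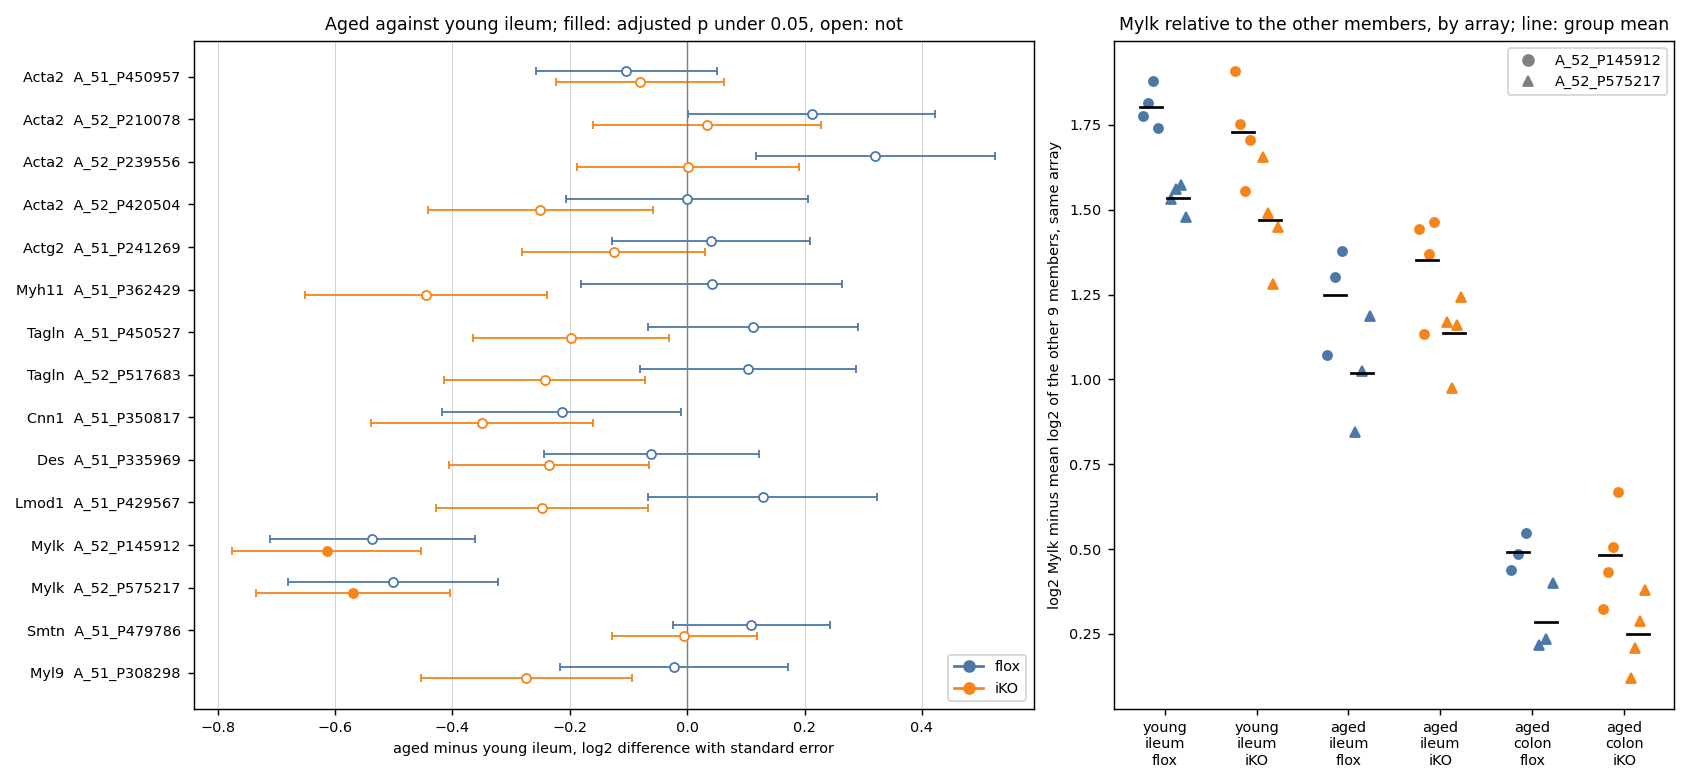
Left, aged minus young ileum (log2 difference with standard error) for 15 member probes in flox and iKO mice, filled where the adjusted p was under 0.05; right, log2 signal of 2 Mylk probes minus the mean of the other 9 members on the same array, by group, with group means as lines. Both Mylk probes are the only filled points, in iKO mice, and their relative level is lower on all 7 aged than on all 8 young ileum arrays.

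The remaining members showed no call with age. In iKO mice Myh11 differed by -0.45 ± 0.21 (adjusted p = 0.177), Cnn1 by -0.35 ± 0.19 (adjusted p = 0.248) and Myl9 by -0.27 ± 0.18 (adjusted p = 0.346). In flox mice Cnn1 differed by -0.21 ± 0.20 (adjusted p = 0.539) and Lmod1 by 0.13 ± 0.20 (adjusted p = 0.718). Acta2 A_52_P239556 was higher on all aged than on all young flox arrays without passing, at 0.32 ± 0.20 (adjusted p = 0.344), a direction that the brighter Acta2 probe A_52_P420504 did not share (0.00 ± 0.21). The median over the 15 probes was 0.04 in flox and -0.24 in iKO mice, beside -0.03 and -0.02 over all probes tested, and 0.20 and -0.07 with quantile normalization.

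The small heat shock proteins of muscle and a second light chain fell with age in both genotypes. Hspb7 fell by 1.09 ± 0.18 in flox (adjusted p = 0.00373) and by 1.01 ± 0.16 in iKO mice (adjusted p = 0.00279), and Hspb6 by 0.66 ± 0.17 and by 0.79 ± 0.16. Myl6, the essential light chain, fell by 0.35 ± 0.10 and by 0.45 ± 0.09. These 3 were the falls among 31 tested of 32 other contractile genes in each genotype. Vcl, the adhesion protein vinculin, rose by 0.38 ± 0.11 in flox mice, the only rise. Over all probes tested, 8.01% passed with age in flox and 11% in iKO mice, in either direction, and the contractile list lay near those shares. Of 21 tested genes of muscle signalling, 4 fell in iKO mice and 0 passed in flox mice in limma (4 at an unadjusted p under 0.05). The 4 were Kcnmb1, a potassium channel subunit (-0.64 ± 0.14), the kinase Rock1 (-0.37 ± 0.10), phospholamban Pln (-0.62 ± 0.17) and Ppp1r12a, the targeting subunit of the myosin phosphatase that opposes Mylk (-0.35 ± 0.10). Among 16 tested regulators 0 passed in either genotype in limma, with 2 in each at an unadjusted p under 0.05. Srf stood nearest, at -0.29 ± 0.09 in flox mice (adjusted p = 0.0555).

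Markers of endothelium and epithelium moved with age beside Mylk. The counts stand beside 8.01% of all probes that passed in flox and 11% in iKO mice. Of 9 endothelial markers 4 rose in flox and 2 in iKO mice, with Vwf at 1.20 ± 0.12 and 1.12 ± 0.11. Their summed level was 3.67 to 4.78 in young flox, 6.45 to 7.99 in aged flox, 3.24 to 4.83 in young iKO and 5.47 to 7.08 in aged iKO ilea. No young group had the endothelial markers Pecam1 or Tek above background on all its arrays. Both were tested only through the aged flox group, where they are high. Of 10 epithelial markers 2 fell in each genotype, with a summed level of 1887 to 2142 in young flox, 1656 to 1734 in aged flox, 1818 to 2318 in young iKO and 1692 to 1816 in aged iKO ilea. The summed level of the 32 other contractile genes was 654 to 780, 627 to 670, 634 to 875 and 529 to 677 in the same order. Of 12 fibroblast markers 3 rose in flox mice and 2 fell in iKO mice. The part of cell composition in the Mylk difference was not tested.

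Between iKO and flox mice no member passed in any comparison. In the young ileum 0 of 15 member probes passed in limma, where 0.0359% of all probes did, and no member reached 0.05 before adjustment (0 of 15). In the aged ileum 0 of 15 passed, where 0.148% did, and 1 had an unadjusted p below 0.05. In the aged colon 0 of 16 passed, where 0.103% did, and 0 had such a p. These backgrounds are so low that a count of 0 says little about the members. No ranges of iKO and flox arrays were apart for any of these probes. The share of all probes with ranges apart between genotypes is not given here, so this is a description and no test.

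In the young ileum the members differed by -0.11 to 0.08 between iKO and flox mice, with a median of -0.02 and a median SE of 0.17. In the colon 8 probes were positive and 8 negative, with a median of 0.00, from -0.25 ± 0.32 for Acta2 A_52_P644232 to 0.24 ± 0.21 for Acta2 A_52_P239556. In the aged ileum all 15 probes were lower in iKO mice, from -0.51 to -0.02, with a median of -0.16 beside 0.02 over all probes tested. Probes that move together from array to array, as these do, do not count as 15 separate observations. Myh11 was the one with an unadjusted p under 0.05. It measured 3.59, 4.01, 4.43 and 3.78 in aged iKO and 4.44, 4.56 and 4.39 in aged flox ilea, a difference of -0.51 ± 0.22 (adjusted p = 0.407). Aged iKO replicate 3 lay within the flox range and the other 3 iKO arrays below it.

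Only slide 2 of the ileum held aged arrays of both genotypes, and there the median over 15 probes was -0.07, with 6 of 15 probes positive and Myh11 at -0.54. On the 4 slides of the young ileum the members' median difference was 0.27, 0.11, -0.40 and -0.02, and on the 3 colon slides with both genotypes it was 0.10, -0.25 and -0.05. The sign of the members' difference thus changed from slide to slide in both.

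**Figure D4:**
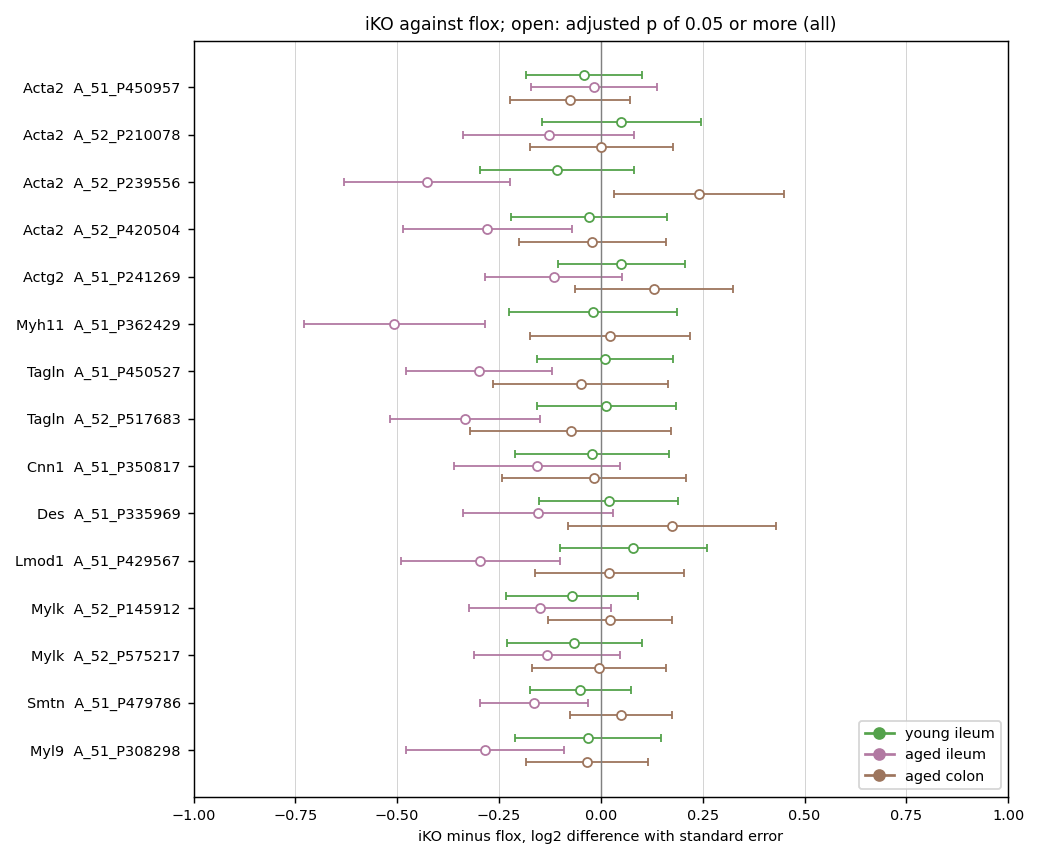
iKO minus flox (horizontal axis, log2 difference with its standard error) for 15 member probes (vertical axis) in the young ileum, aged ileum and aged colon; every point is open, since none passed at an adjusted p under 0.05. Points of the young ileum and colon lie on both sides of 0, between -0.11 and 0.24, and those of the aged ileum lie left of it, down to -0.51 for Myh11.

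Other genes of the muscle coat were counted in the same comparison. In the aged ileum 2558 of 22272 probes tested had an unadjusted p under 0.05, against 1 of the 15 member probes. Of 31 other contractile genes tested, 25 were lower in iKO mice, 0 passed in limma and 5 had an unadjusted p under 0.05, with a median of -0.27. Myh10, a non-muscle myosin heavy chain, differed by -0.90 ± 0.18 (adjusted p = 0.0834), Fhl1 by -1.08 ± 0.35 (adjusted p = 0.273) and Vcl by -0.36 ± 0.11 (adjusted p = 0.24). All 12 fibroblast markers were lower in iKO mice, with a median of -0.49, and Col6a2, a collagen of the muscle and fibroblast matrix, passed at -0.81 ± 0.12 (adjusted p = 0.0136). Their summed level was 73.5 to 99.2 in aged flox and 49.9 to 81.4 in aged iKO ilea. In the young ileum 0 of 31 other contractile genes passed in limma (0 at an unadjusted p under 0.05), and in the colon 0 of 32 (also 0). In the aged ileum 0 of 16 regulators passed in limma (0 at an unadjusted p under 0.05), and 0 of 21 genes of muscle signalling (5 at that level, Itpr1 at -0.40 ± 0.14 the smallest p).

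The genotype by age interaction asks whether iKO and flox mice differed more in old age. Of 15 member probes 14 were negative, 0 passed in limma and 0 had an unadjusted p under 0.05, where 0% of all probes passed and 586 of 22272 had such a p. The median was -0.18 beside 0.02 over all probes, and Myh11 had the largest value at -0.49 ± 0.30 (adjusted p = 1).

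Within groups, the members were high and low together from array to array. Taking the brightest probe of each member and its deviation from the group mean, the 45 pairs of members correlated at 0.32 to 0.95 over 15 ileum arrays, with a median of 0.75, and at 0.47 to 0.99 over 7 colon arrays, with a median of 0.78. These are descriptions over arrays that share their RNA, scaling and hybridisation, and they carry no test. In the ileum the closest pair was Mylk with Myl9, the kinase and its substrate (0.95), and Tagln went with Cnn1 at 0.93. The loosest were Actg2 with Smtn (0.32), Actg2 with Lmod1 (0.33) and Mylk with Smtn (0.37). Mylk with Myl9 was also the closest pair in the colon (0.99).

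The 2 Mylk probes correlated at 0.99 in the ileum and 0.98 in the colon, and the 2 Tagln probes at 0.98 in both. Against the mean of the other 9 members, Tagln was tied most closely in the ileum (0.95), followed by Acta2 and Des (0.93 for each), and Smtn least (0.59). In the colon Tagln and Myl9 led (0.92 for each) and Lmod1 was last (0.71).

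A few arrays carried most of this movement. Averaged over the members, young iKO replicate 2 lay 0.42 above its group mean, aged iKO replicate 3 of the ileum 0.29 above, young iKO replicate 4 at -0.29 and aged iKO replicate 1 at -0.27. In the colon iKO replicate 1 lay 0.30 above and iKO replicate 4 at -0.29. The aged flox ilea lay closest together, between -0.08 and 0.07. Differences of this size between mice of 1 group are larger than the members' median difference between iKO and flox mice in any comparison.

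**Figure D5:**
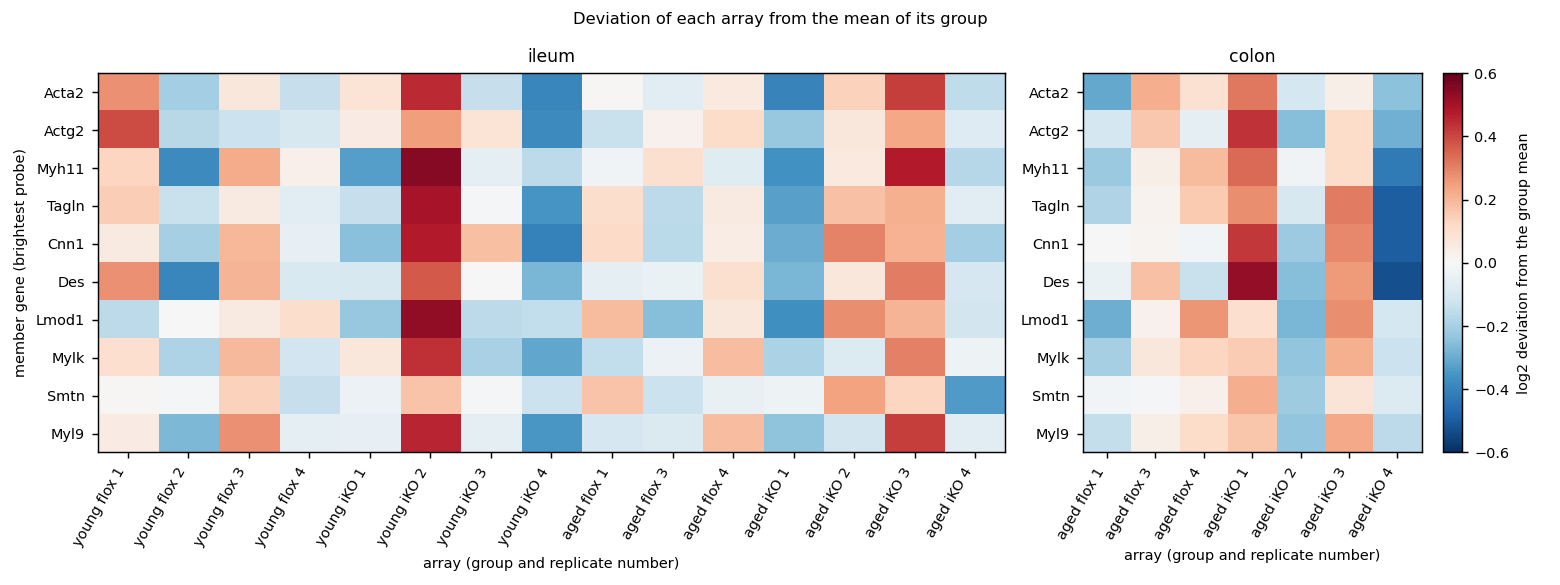
Log2 deviation of each array from the mean of its group (colour) for the brightest probe of the 10 members (rows) on 15 ileum and 7 colon arrays (columns). Columns tend to be of 1 colour: young iKO replicate 2 is high and young iKO replicate 4 low for nearly all members, with a mean deviation of 0.42 and -0.29.

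The genes most like the members over the 15 ileum arrays were sought among 19284 probes above background on all of them, by correlation with the members' mean deviation. The 5 highest were Pdlim3, Pgm5, Tns1, Smarcd3 and Ckb, at 0.961 to 0.967. Of these, Pdlim3 (a LIM protein of actin filaments), Pgm5 (aciculin, found at muscle adhesions) and Tns1 (tensin, which links actin to focal adhesions) are known from muscle. Over all 19284 probes the median was 0.06 and 1.14% lay above 0.8. Over the 7 colon arrays and 27660 probes the 5 highest were Ppp1r12c, Ank1, Mcpt4, Qk and Pramel12, at 0.984 to 0.997, where 2.89% of probes lay above 0.8. No gene was among the first 5 in both tissues. Rbpms2, an RNA-binding protein of visceral smooth muscle, was 8th in the ileum (0.96) and 7th in the colon (0.98), and is singled out after its values were seen.

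Since the members moved together, their promoters were searched for the CArG box. RefSeq promoter windows of build GRCm38.p6, from 250 bases before to 50 after the start, were at hand for 7 of the 10 members: Acta2, Cnn1, Des, Lmod1, Mylk, Smtn and Myl9. The strict form has 6 A or T bases between CC and GG and reads as its own pattern on the other strand, so both strands are covered. A looser form allows 1 C or G among the 6 and includes every strict match. The matches are shown with 10 bases on either side, the box in capitals.
Acta2 first box: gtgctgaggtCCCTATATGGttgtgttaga
Acta2 second box: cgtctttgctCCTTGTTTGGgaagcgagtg
Myl9 first box: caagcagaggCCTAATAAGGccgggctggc
Myl9 second box: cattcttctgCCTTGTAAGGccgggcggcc
The Acta2 windows lie at chr19:34255438-34255467 and chr19:34255388-34255417 on the minus strand, and the boxes begin 84 and 34 bases before the start. The Myl9 windows lie at chr2:156775293-156775322 and chr2:156775355-156775384 on the plus strand, and the boxes begin 161 and 99 bases before the start. Only the first Myl9 box is strict. Of the 7 members 1 held a strict and 2 a loose match, where 1.63% and 9.99% of 32817 promoter windows did. Cnn1, Des, Lmod1, Mylk and Smtn held neither in this window, which says only that these letters are not there.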

How the data were processed

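RNA was hybridised to Agilent 1-colour arrays, 1 array per sample. The deposited files hold signal intensity values per spot from Agilent Feature Extraction 9.5.3.1, background-subtracted within each array and not scaled between arrays, per the file headers. The authors' series matrix equalled these values. The 10 members and all gene lists were chosen with earlier results of these data known. Log2 signals were taken minus the array's 75th percentile, spots of 1 probe averaged and outlier spots left out. A probe was tested if some group had it well above background on all its arrays, with limma 3.58.1 (lmFit, eBayes) in R 4.3.3, in separate fits of 15 ileum, 7 colon and 14 aged arrays, with Benjamini-Hochberg adjustment over all probes tested and a threshold of 0.05. The script was tested on simulated data. List genes were read from their brightest probe over 22 arrays. Named were all members, up to 4 passing genes per list and direction by p, or the 3 smallest p where none passed, and the 5 probes most like the members; the text takes genes from the top of these. Alternatives covered scaling, background, filters, model, slide, replicate number and each array left out. The number of arrays limits the precision.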

Additional observations from a re-analysis of the deposited data

Results flagged for a closer look

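Over 60 groups of 4 arrays, 3 had a highest or lowest array whose gap to the nearest other was, as a share of the group's range, above Dixon's 95% critical value. Chance gives about 1 in 20 groups, which is the number found. In the young ileum of iKO mice, replicate 2 was highest for Acta2 A_52_P239556, at -1.32 on the log2 scale with the next array at -2.03, and for Lmod1, at 2.68. In the young ileum of flox mice, replicate 1 was highest for Actg2, at 4.48 with the next at 4.00.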

How the results depend on the processing

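No count of member probes passing changed for iKO against flox in the young ileum, aged ileum or colon, or for either interaction: all were 0 under every alternative run. For colon against ileum in iKO mice 7 to 12 probes passed, against 10. In flox mice, against 4, the count was 9 with quantile normalization and 2 to 7 with 1 array left out. For ageing in iKO mice, against 2, it was 0 with quantile normalization, 0 without a filter on dim probes, 0 with only the groups in the contrast, 1 with the brightest probe per gene, 1 with the replicate number as a block and 0 to 2 with 1 array left out. For ageing in flox mice, against 0, it was 0 to 1 with 1 array left out, where young iKO replicate 2, which enters only through the shared spread, gave the 1 (Mylk, adjusted p = 0.0412). The fit to the brightest probe tests fewer Mylk probes. No called difference changed sign. Residuals of equal replicate numbers correlated at -0.34 to 0.36 in 21 ileum pairs, 14 of them above 0.1. They correlated at -0.12 to 0.10 in 3 colon pairs and at -0.03 to 0.13 in 7 pairs of ileum and colon. Pairs of unequal number are not set beside these, so they do not tell whether the replicate numbers pair the arrays. Apart from the Mylk and Acta2 A_52_P210078 (adjusted p = 0.0855) calls, the block ended no member's call. The slide as a fixed factor could not be run across tissues. The cause of these changes was not tested. Arrays were few and their calls of marginal genes depend on single arrays.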
